A study of Mus musculus with 6 samples.

Results

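Semaphorins are guidance ligands, and plexins and neuropilins are their receptors. Expression of 10 such genes, *Sema3a*, *Sema3c*, *Sema3d*, *Sema6d*, *Plxna1*, *Plxna2*, *Plxna4*, *Plxnd1*, *Nrp1* and *Nrp2*, was compared between *Hic2* conditional mutant and wildtype mouse hearts at E9.5. They were taken as guidance genes of the outflow tract and vessels, and each was represented by the transcript cluster annotated to it alone, a cluster being the set of array probes summarised as one gene. Of the 23332 clusters on the array, 9 stood for one of these genes. *Nrp2* had none of its own and shared a cluster with *Pard3b*.

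RNA was measured on 6 Affymetrix exon arrays, 3 per genotype, each from a pool of 4 to 6 hearts with the blood inside them. Mutants were *Mesp1Cre/+; Hic2 FL/FL* and wildtypes were *Mesp1+/+; Hic2 FL/FL* per the labels, so that only the mutants carried Cre. The study's methods also count embryos without Cre and with 1 floxed *Hic2* allele as wildtype, and whether such embryos were in the pools was not analysed here. Cre made from the *Mesp1* locus acts in derivatives of the anterior mesoderm, including part of the blood lineage, and takes the place of 1 *Mesp1* copy. A group with Cre and unfloxed *Hic2* was not analysed here. Values are log2 intensities as the authors normalised them, and levels of different clusters cannot be set against each other because their probes differ. Differences are mutant minus wildtype, with p-values from limma adjusted over the 10439 clusters tested. In RNA from whole hearts, fewer cells of a type and less RNA per cell cannot be told apart.

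Class 3 semaphorins such as *Sema3a*, *Sema3c* and *Sema3d* are secreted and mostly signal through a neuropilin, which binds the ligand, paired with a plexin, which carries the signal into the cell. Membrane-bound semaphorins such as *Sema6d* bind plexins without a neuropilin. In the developing heart the family is known for guiding neural crest cells into the outflow tract, for vessel patterning and for endocardial and myocardial growth.

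Start-site windows from RefSeq (GRCm38.p6) were found for 8 of the 10 genes, in 9 windows of the 250 bases before the start, with 2 windows for *Sema6d*. The window of *Sema3c* is shown because this ligand had the lowest p of the 9 genes, and that of *Plxna2* because it encodes a receptor known to act with *Sema3c* in the outflow tract and because its window holds a GATA motif. *Sema3c* lies at chr5:17574566-17574815 and *Plxna2* at chr1:194619579-194619828, both on the plus strand, and capitals mark the GATA motif.
Sema3c: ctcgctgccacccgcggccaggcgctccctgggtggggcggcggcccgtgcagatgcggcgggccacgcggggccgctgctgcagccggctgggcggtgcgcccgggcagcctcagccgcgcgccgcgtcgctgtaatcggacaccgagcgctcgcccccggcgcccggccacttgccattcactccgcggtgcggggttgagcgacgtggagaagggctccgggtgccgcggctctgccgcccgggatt
Plxna2: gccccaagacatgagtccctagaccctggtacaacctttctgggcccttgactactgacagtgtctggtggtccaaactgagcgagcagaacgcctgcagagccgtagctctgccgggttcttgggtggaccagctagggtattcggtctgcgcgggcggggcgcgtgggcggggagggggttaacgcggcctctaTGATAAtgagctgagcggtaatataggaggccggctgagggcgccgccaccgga
The letters that GATA factors bind were searched on both strands as AGATAA and AGATAG and, with another first base, as TGATAA and TGATAG. They stood in 3 of the 9 windows, those of *Sema3a*, *Plxna2* and 1 of the *Sema6d* starts, against 26.5% of 32851 windows of the same length. In *Plxna2* the motif ended 49 bases before the start. The letters GGGCAACC, and with another sixth base GGGCACCC, are a core known for the related factor HIC1. They stood in 0 of the 9 windows and in 1.65% of all windows. A match is a description of the letters and was not tested as a binding site.

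*Hic2* itself was at 8.27, 8.23 and 8.37 on the mutant arrays and at 9.35, 9.36 and 8.91 on the wildtype arrays, without overlap. The difference was -0.92 ± 0.137 (SE, n = 3 each), with a limma p of 0.000112 and an adjusted p of 0.125, which was 0.0244 without wildtype replicate 3. Where its probes lie relative to the floxed part was not analysed here. Over all tested clusters the mutant mean was the lower one in 71.8%, the median difference was -0.09, and 0 clusters were lower and 7 higher at an adjusted p under 0.05. Unadjusted, 616 clusters were lower and 175 higher, and the split moved with the scaling, from 77.9% lower as deposited to 85.2% after median centring, 63.4% after quantile normalisation and 55.1% after cyclic loess. The median difference was then -0.09, -0.03 and -0.01. All 8 cardiomyocyte markers measured passed the intensity filter, with medians of 13.43 to 13.68 on mutant and 13.31 to 13.53 on wildtype arrays.

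All 9 genes had a lower mean in mutant than in wildtype hearts, against 71.8% of all clusters, but none passed the adjusted threshold in either direction, against 0% of all clusters lower and 0.0671% higher. Their differences ran from -0.47 for *Sema3d* to -0.10 for *Nrp1*, with a median of -0.21. All 9 passed the filter on low values, and the mutant mean was also the lower one after median centring, quantile normalisation and cyclic loess, where the median of the 9 was -0.21, -0.16 and -0.15. Over all clusters it was the lower one in 72.2%, 58.2% and 54.4% after these scalings. At an unadjusted limma p under 0.05, 1 of the 9 was lower (*Sema3c*), against 5.9% of all clusters. The genotypes were apart, with all mutant arrays below all wildtype arrays, for 2 of the 9 (*Sema3c* and *Plxna4*), against 9.59% of all clusters, and apart in the other direction for 0, against 2.82%. The methods' test on log2 values took 2 of the 9 as lower at an unadjusted p under 0.05, the same genes as those without overlap, against 4.05% of all clusters, and none after adjustment.

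**Figure D1:**
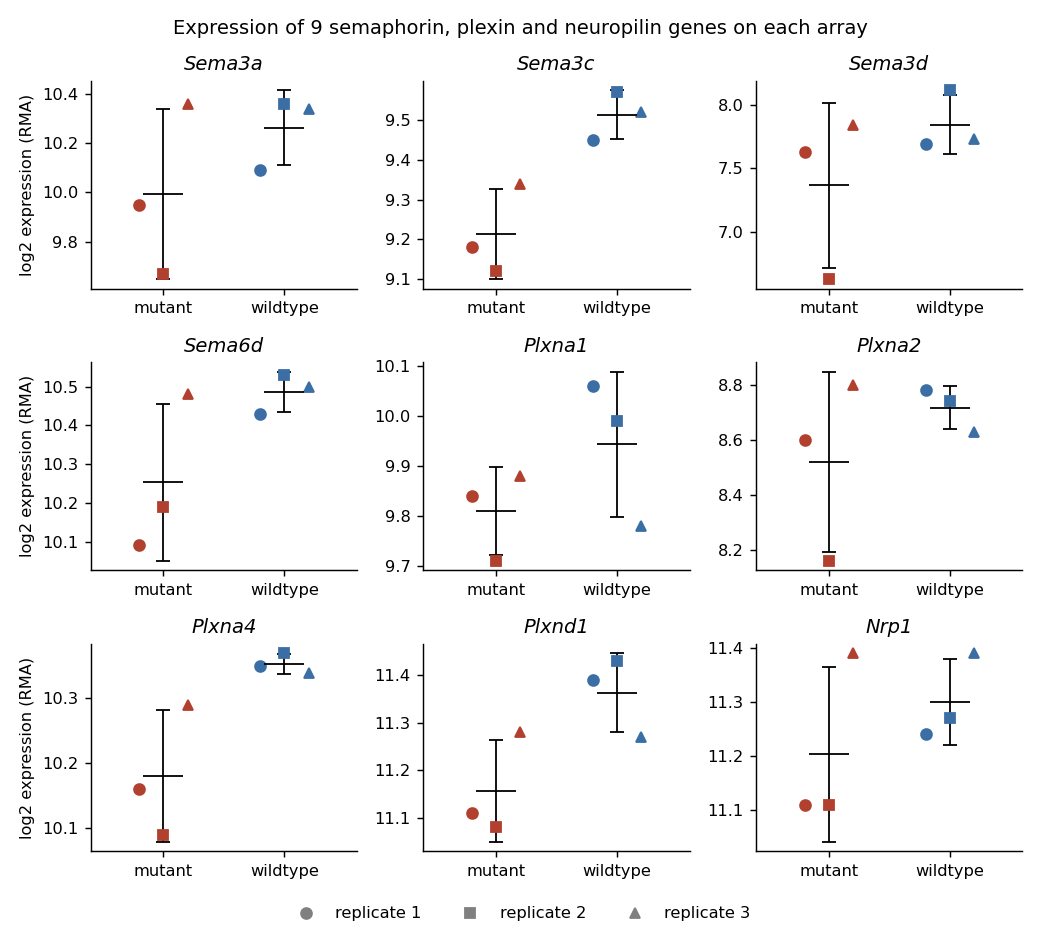
Log2 expression of the 9 semaphorin, plexin and neuropilin genes with a cluster of their own on each array, mutant on the left and wildtype on the right of each panel, with the genotype mean and SD (n = 3 each). The genotypes are apart for *Sema3c* and *Plxna4* and overlap for the other genes.

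Of the ligands, *Sema3c* stood apart most clearly by genotype. It encodes a secreted semaphorin needed in the mouse for neural crest cells to populate the outflow tract and for division of the great vessels. It was at 9.18, 9.12 and 9.34 in mutant hearts and at 9.45, 9.57 and 9.52 in wildtype hearts. The highest mutant array lay 0.11 below the lowest wildtype array. The means of 9.21 ± 0.11 and 9.51 ± 0.06 (SD, n = 3 each) differed by -0.30 ± 0.101 (SE), or 0.813-fold, with a 95% interval of -0.53 to -0.07, an unadjusted limma p of 0.0171 and an adjusted p of 0.606. The unadjusted p was 0.0709 after quantile normalisation and 0.0771 after cyclic loess. It was 0.0696 without mutant replicate 1, 0.0549 without mutant replicate 2 and 0.0781 without wildtype replicate 2.

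*Sema3a*, which encodes a repellent for axons that also patterns the nerves of the heart, was at 9.95, 9.67 and 10.36 in mutant hearts and at 10.09, 10.36 and 10.34 in wildtype hearts. Mutant replicate 3 was level with the higher wildtype arrays and the genotypes overlapped. The difference was -0.27 ± 0.174 (SE, n = 3 each), with an interval of -0.67 to 0.12 and an adjusted limma p of 0.626. Without mutant replicate 3 it was -0.46, with an unadjusted p of 0.0116, and without mutant replicate 2 it was -0.11, with an unadjusted p of 0.504.

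*Sema3d*, a secreted ligand known in the mouse for the patterning of the pulmonary veins, had the widest spread. It was at 7.63, 6.63 and 7.84 in mutant hearts and at 7.69, 8.11 and 7.73 in wildtype hearts. Mutant replicate 2 lay at least 1 log2 unit below the other mutant arrays, while mutant replicate 3 lay above 2 of the wildtype arrays. The difference of -0.47 ± 0.285 (SE, n = 3 each), with an interval of -1.12 to 0.18 and an adjusted limma p of 0.617, was -0.11 without mutant replicate 2 and -0.71, with an unadjusted p of 0.039, without mutant replicate 3. Its linear means were 175 in mutant and 231 in wildtype hearts, where the filter asked for over 100 in the higher genotype.

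*Sema6d* encodes a membrane-bound semaphorin that in the chick acts through plexin A1 on the endocardium and myocardium. It was at 10.09, 10.19 and 10.48 in mutant hearts and at 10.43, 10.53 and 10.50 in wildtype hearts. Mutant replicates 1 and 2 lay below the wildtype arrays and mutant replicate 3 lay within them. The difference was -0.23 ± 0.12 (SE, n = 3 each), with an interval of -0.51 to 0.04 and an adjusted limma p of 0.606. Without mutant replicate 3 it was -0.34, with an unadjusted p of 0.00967, and without mutant replicate 1 it was -0.15.

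Among the receptors, *Plxna4*, a receptor of *Sema3a* on sensory and sympathetic neurons, was at 10.16, 10.09 and 10.29 in mutant hearts and at 10.35, 10.37 and 10.34 in wildtype hearts. The genotypes did not overlap, but the gap between them was 0.05. The difference was -0.17 ± 0.0973 (SE, n = 3 each), with an interval of -0.40 to 0.05, an unadjusted limma p of 0.111 and an adjusted p of 0.608. The wildtype arrays had an SD of 0.01, the smallest of the 9 genes, and the methods' test, which uses the spread of this gene alone, gave an unadjusted p of 0.0475.

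*Plxnd1*, a receptor of the endothelium that in the mouse is needed for the aortic arch arteries and the outflow tract, was at 11.11, 11.08 and 11.28 in mutant hearts and at 11.39, 11.43 and 11.27 in wildtype hearts. The genotypes met at mutant replicate 3 and wildtype replicate 3. The difference was -0.21 ± 0.104 (SE, n = 3 each), with an interval of -0.44 to 0.03, an unadjusted limma p of 0.0794 and an adjusted p of 0.606. The unadjusted p was 0.0314 without mutant replicate 3 and 0.0446 without wildtype replicate 3.

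*Plxna2*, which marks cardiac neural crest cells on their way to the outflow tract, was at 8.60, 8.16 and 8.80 in mutant hearts and at 8.78, 8.74 and 8.63 in wildtype hearts. Mutant replicate 3 was the highest of the 6 arrays and mutant replicate 2 the lowest. The difference was -0.19 ± 0.16 (SE, n = 3 each), with an interval of -0.56 to 0.17 and an adjusted limma p of 0.666, and it was -0.01 without mutant replicate 2 and -0.34 without mutant replicate 3, with unadjusted p-values of 0.91 and 0.0546.

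*Plxna1*, which encodes the plexin that *Sema6d* binds, was at 9.84, 9.71 and 9.88 in mutant hearts and at 10.06, 9.99 and 9.78 in wildtype hearts. Here the low wildtype array, replicate 3, lay below 2 of the mutant arrays. The difference was -0.13 ± 0.11 (SE, n = 3 each), with an interval of -0.38 to 0.12 and an adjusted limma p of 0.669. It was -0.07 without wildtype replicate 1, -0.08 without mutant replicate 2 and -0.21 without wildtype replicate 3.

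*Nrp1*, which encodes a co-receptor for class 3 semaphorins and for VEGF on endothelial cells, had the difference nearest 0 of the 9 genes when all 6 arrays were used. It was at 11.11, 11.11 and 11.39 in mutant hearts and at 11.24, 11.27 and 11.39 in wildtype hearts, and replicate 3 was level between the genotypes. The difference was -0.10 ± 0.112 (SE, n = 3 each), with an interval of -0.35 to 0.16 and an adjusted limma p of 0.752. It was -0.05 without mutant replicate 1 or 2, -0.06 without wildtype replicate 3 and -0.19 without mutant replicate 3. *Nrp2* encodes the other neuropilin, and no level can be given for it alone. The cluster it shares with *Pard3b* was at 9.17, 8.83 and 9.63 in mutant hearts and at 9.63, 9.77 and 9.81 in wildtype hearts. The difference of -0.53 ± 0.186 (SE, n = 3 each; unadjusted limma p of 0.0206, adjusted p of 0.606) cannot be assigned to either gene.

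The mutant arrays did not lie equally low. Set against each gene's wildtype mean, the median of the 9 genes was -0.21 in mutant replicate 1, -0.30 in mutant replicate 2 and -0.01 in mutant replicate 3. All 9 genes lay below the wildtype mean in mutant replicates 1 and 2, and 6 did in mutant replicate 3. On the wildtype arrays the medians were -0.06, 0.04 and -0.01. Mutant replicate 2 was the lowest of the 6 arrays for 8 of the 9 genes, against 43.9% of all clusters, and *Sema6d* was lowest in mutant replicate 1. Mutant replicate 3 was the highest of the mutant arrays for all 9, against 46.3% of all clusters. The median SD of the 9 genes was 0.16 among mutant and 0.08 among wildtype arrays, against 0.14 and 0.13 over all clusters.

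**Figure D2:**
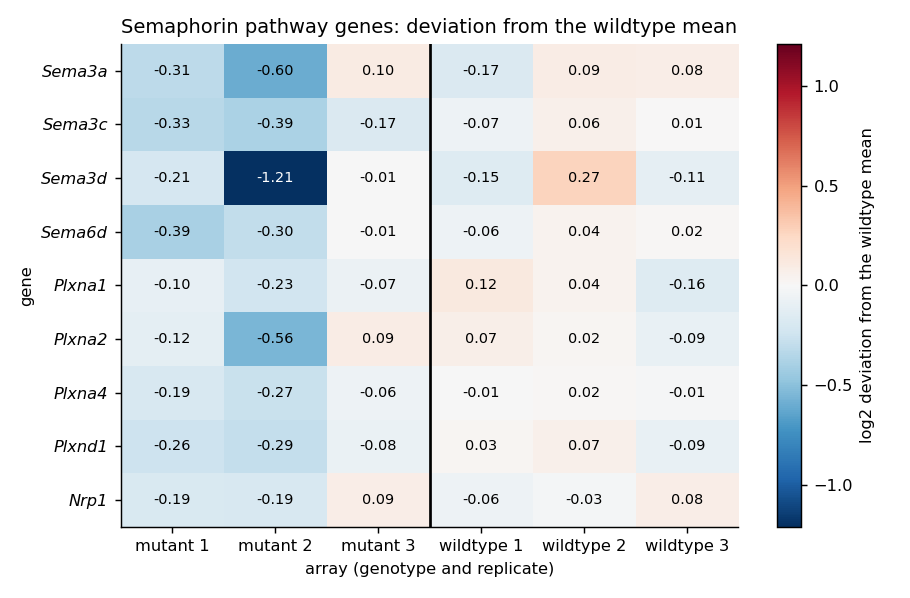
Deviation of each of the 9 genes from its wildtype mean in log2 units, with genes in rows and arrays in columns, mutant on the left. Mutant replicate 2 is low for every gene, down to -1.21 for *Sema3d*, while mutant replicate 3 lies between -0.18 and 0.10.

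The count at an unadjusted limma p under 0.05 moved with these arrays. Without mutant replicate 3, 6 of the 9 genes were lower (*Sema3a*, *Sema3c*, *Sema3d*, *Sema6d*, *Plxna4* and *Plxnd1*), while the count over all clusters was 1743 in place of 616. Without wildtype replicate 3, 2 of the 9 were lower and 1891 clusters in all. Without mutant replicate 1, mutant replicate 2 or wildtype replicate 2, 0 of the 9 were lower and 312, 236 and 188 clusters in all. None of the 9 passed the adjusted threshold in any of these fits.

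Of 21 other semaphorin and plexin genes listed, 18 had a cluster of their own and 14 passed the filter. The mutant mean was lower for 13 of the 14, against 71.8% of all clusters, with a median difference of -0.17, and none passed the adjusted threshold. Unadjusted, 2 were lower (*Plxnc1* and *Sema4d*) and 1 higher (*Sema3b*) at a limma p under 0.05, against 5.9% and 1.68% of all clusters. Together with the 9 genes above, 23 genes of the family were tested. By kind, over these 23, 4 of 5 class 3 semaphorins, 9 of 9 membrane-bound semaphorins and 8 of 8 plexins had a lower mutant mean, with medians of -0.27, -0.23 and -0.16. *Sema3e*, *Sema4a*, *Sema4f* and *Sema5b* were too dim to test, and *Sema3g*, *Sema4c* and *Plxnb3* had no cluster of their own.

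*Sema3b*, a secreted semaphorin like *Sema3c*, was at 8.65, 8.52 and 8.53 in mutant hearts and at 8.30, 8.25 and 7.97 in wildtype hearts. It was the one tested gene of the family with a higher mutant mean, and the genotypes did not overlap. The difference was 0.40 ± 0.115 (SE, n = 3 each), with an interval of 0.13 to 0.66, an unadjusted limma p of 0.00802 and an adjusted p of 0.598. *Plxnc1*, which encodes the receptor of *Sema7a*, was at 9.21, 9.05 and 9.44 in mutant hearts and at 9.68, 9.77 and 9.43 in wildtype hearts, and the genotypes overlapped through replicate 3 (-0.39 ± 0.137, SE, n = 3 each, unadjusted limma p of 0.0198). *Sema4d*, which encodes a ligand of plexin B1, was at 7.89, 7.93 and 8.04 in mutant hearts and at 8.46, 8.42 and 8.02 in wildtype hearts, again overlapping through replicate 3 (-0.35 ± 0.134, SE, n = 3 each, unadjusted limma p of 0.0302). Both p-values were over 0.05 without mutant replicate 1, mutant replicate 2, wildtype replicate 1 or wildtype replicate 2, between 0.0529 and 0.0812 for *Plxnc1* and between 0.0655 and 0.111 for *Sema4d*. The unadjusted limma p of *Sema3b* was 0.00868 to 0.0389 with an array left out, 0.000219 after quantile normalisation and 0.000216 after cyclic loess. Its adjusted p was 0.0996 and 0.102 after these scalings. With each array's erythroid median added as a covariate, *Sema3b* was at 0.22 (unadjusted limma p of 0.234), *Plxnc1* at -0.71 (0.00689) and *Sema4d* at -0.65 (0.00843). That median lies apart between the genotypes, and 2317 of the 10439 clusters were then lower at an unadjusted p under 0.05.

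**Figure D3:**
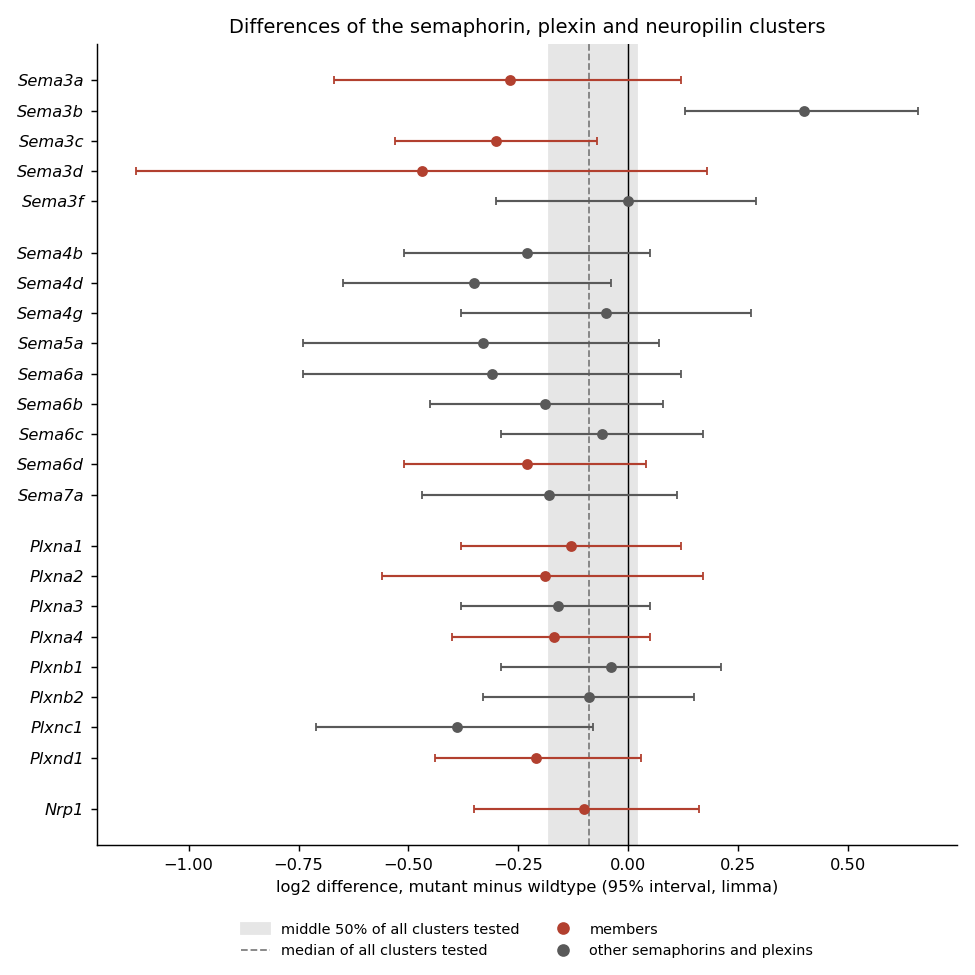
Difference in log2 expression, mutant minus wildtype, with 95% intervals from limma (n = 3 each), for the 23 semaphorin, plexin and neuropilin genes tested. All differences lie at or below 0 except that of *Sema3b* at 0.40.

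Of 25 plexin co-receptors and effectors listed, 20 were tested. All 20 had a lower mutant mean, against 71.8% of all clusters, with a median of -0.17 against -0.09 over all clusters. At an unadjusted limma p under 0.05, 4 of the 20 were lower, against 5.9% of all clusters, and none passed the adjusted threshold. *Dpysl3*, one of the collapsin response mediators that pass semaphorin signals to the cytoskeleton, was at 12.25, 12.26 and 12.47 in mutant hearts and at 12.68, 12.58 and 12.60 in wildtype hearts (-0.30 ± 0.103, SE, n = 3 each, unadjusted limma p of 0.0197). Its relatives *Dpysl5* (-0.50) and *Crmp1* (-0.38), and *Rnd1* (-0.47), a small GTPase that binds plexins, were the others. *Rnd1* had linear means of 85.8 in mutant and 120 in wildtype hearts, and *Cfl1*, also among the 20, of 94.2 and 106. Both passed the filter only through the wildtype hearts, so their lower mutant mean was fixed by the filter. *Dpysl3* and *Dpysl5* did not overlap between the genotypes, while *Crmp1* and *Rnd1* did.

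The VEGF genes, which share *Nrp1* with the semaphorins, did not run one way. Of 6 tested, 4 had a lower and 2 a higher mutant mean, where 71.8% of all clusters had a lower one, with a median of -0.08. The receptors *Flt1* (-0.31 ± 0.125) and *Kdr* (-0.32 ± 0.141, SE, n = 3 each) had unadjusted limma p-values of 0.0388 and 0.0499. *Kdr* was at 10.46, 10.22 and 10.77 in mutant hearts and at 10.79, 10.81 and 10.82 in wildtype hearts, with a gap of 0.02 between the genotypes. The ligand *Vegfa* had a difference of 0.29 ± 0.133 (SE, n = 3 each), with an unadjusted limma p of 0.0606 and overlap.

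Of 16 other guidance ligands and receptors tested, 14 had a lower mutant mean, against 71.8% of all clusters, with a median of -0.20, and 3 were lower at an unadjusted limma p under 0.05, against 5.9%. Of the 2 with a higher mutant mean, *Ntn4* passed the filter only through the mutant hearts, so its direction was fixed by the filter. The ephrins *Efnb3* (-0.34) and *Efnb2* (-0.26), ligands of Eph receptors, and the netrin receptor *Unc5a* (-0.28) had unadjusted limma p-values of 0.0148, 0.0317 and 0.0344. Of 12 transcription factors of the outflow tract, 11 had a lower mutant mean, again against 71.8% of all clusters, with a median of -0.15, and none reached an unadjusted p under 0.05. The lowest p-values there were those of *Foxc1* (-0.19, 0.115), *Tbx3* (-0.23, 0.122) and *Hand2* (-0.17, 0.13). No gene of these lists passed the adjusted threshold.

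**Figure D4:**
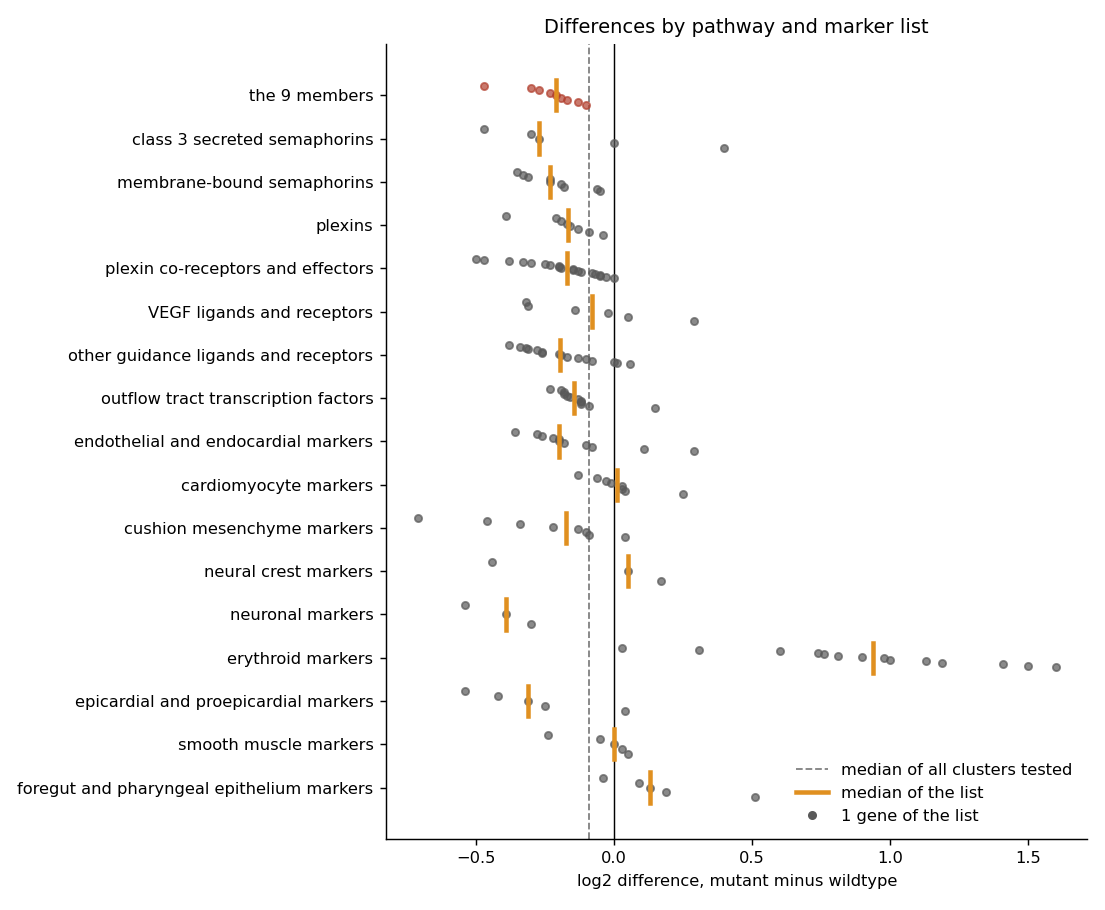
Difference in log2 expression, mutant minus wildtype, for the genes of each list, 1 point per gene, with the list median. The medians lie between -0.39 and 0.13 except for the erythroid markers at 0.94.

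Cell type markers were set beside these values. Of 14 erythroid markers, all 14 had a higher mutant mean, where 71.8% of all clusters had a lower one. An unadjusted limma p under 0.05 was reached by 12, against 1.68% of all clusters higher, and none passed after adjustment. The median difference of the erythroid markers was 0.94. Their summed linear level was 10100 to 14900 on mutant and 5710 to 8690 on wildtype arrays. *Rhd*, a red cell membrane protein, was at 9.30, 9.01 and 9.59 on mutant arrays and at 8.35, 7.58 and 7.19 on wildtype arrays, and *Hemgn*, an erythroid nuclear protein, was 2.84-fold higher in its mutant mean. Without wildtype replicate 1, both had an adjusted limma p of 0.0329. Mutant replicate 3, which lay closest to the wildtype arrays in the 9 genes, had the highest erythroid median of the 6 arrays (9.51), and mutant replicate 2, which lay lowest, had the lowest of the mutant arrays (8.80). The erythroid median was 9.06, 8.80 and 9.51 on mutant and 8.73, 8.16 and 7.79 on wildtype arrays, without overlap. As a covariate it runs with genotype, so a fit on 6 arrays cannot separate blood from genotype. With that median as a covariate, the median difference of the 9 genes was -0.36 and that of all clusters -0.23. In that fit, 2317 of the 10439 clusters were lower at an unadjusted limma p under 0.05, in place of 616. *Plxna1* was then at -0.36, *Plxna2* at -0.57 and *Plxnd1* at -0.37, with unadjusted limma p-values of 0.0326, 0.0388 and 0.0364. *Sema3a* was at -0.43 and *Sema3d* at -0.93, with p-values of 0.211 and 0.106, and the p of *Sema3c* was 0.0627. The part of the blood in these differences was not tested.

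Of 11 endothelial and endocardial markers tested, 9 had a lower mutant mean, against 71.8% of all clusters, with a median of -0.20. Their summed linear levels were 21500 to 24200 in mutant and 23800 to 25000 in wildtype hearts. *Nfatc1*, an endocardial transcription factor, and *Npr3*, an endocardial receptor, had differences of -0.36 and -0.28, with unadjusted limma p-values of 0.0143 and 0.0372. These were the 2 markers under 0.05, against 5.9% of all clusters lower. *Egfl7* (0.29) and *Emcn* (0.11) had a higher mutant mean. All mutant arrays lay above all wildtype arrays for 1 marker (*Emcn*) and below them for 3, against 2.82% and 9.59% of all clusters. *Cldn5*, a tight junction protein of endothelium, was below the filter. Of 8 cushion mesenchyme markers, 7 had a lower mutant mean, against 71.8% of all clusters, with a median of -0.17. Their sums were 11600 to 13600 in mutant and 13400 to 13700 in wildtype hearts. There, *Sox9*, a regulator of cushion mesenchyme, and *Postn*, a matrix protein of the cushions, had differences of -0.46 and -0.71. Their unadjusted limma p-values were 0.0161 and 0.0209, with an adjusted p of 0.606 for both. These were the 2 of 8 under 0.05, against 5.9% of all clusters lower. The genotypes overlapped in *Postn* and met in *Sox9* at replicate 3 (9.88). *Prrx2* (0.04) was the 1 with a higher mutant mean. The 9 genes themselves summed to 9210 to 11400 in mutant and 11300 to 11800 in wildtype hearts. The part of these cell types in the differences was not tested.

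For neural crest cells and neurons, which express many of these guidance genes, few markers could be tested. Of 8 neural crest markers, 3 passed the filter, and the defining factors *Foxd3*, *Tfap2a* and *Tfap2b* were below it. *Erbb3*, a neuregulin receptor, had a difference of -0.44 with an unadjusted limma p of 0.0304, and *Sox10*, a crest transcription factor, one of 0.17 with a p of 0.17. The 3 summed to 1880 to 2440 in mutant and 2140 to 2300 in wildtype hearts. Of 8 neuronal markers, 3 passed, all with a lower mutant mean, against 71.8% of all clusters. The 3 summed to 379 to 480 in mutant and 488 to 624 in wildtype hearts. *Elavl4* and *Stmn2* had linear means of 96.4 and 93.5 in mutant and 122 and 123 in wildtype hearts. They passed the filter only through the wildtype hearts, so their lower mutant mean was fixed by the filter. *Nefl*, a neurofilament, was at 7.64, 7.69 and 8.10 in mutant hearts and at 8.39, 8.43 and 8.24 in wildtype hearts, without overlap (-0.54 ± 0.139, SE, n = 3 each, unadjusted limma p of 0.00409, adjusted p of 0.498). Their part in the values of the guidance genes was not tested.

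The remaining marker lists varied less evenly. The 8 cardiomyocyte markers had a median difference of 0.01, with 4 lower and 4 higher mutant means and sums of 77400 to 88400 in mutant and 77300 to 83100 in wildtype hearts. The 5 epicardial markers had a median of -0.31 and no unadjusted p under 0.05, and the 5 smooth muscle markers a median of 0.00. The 5 foregut and pharyngeal markers had a median of 0.13. At an unadjusted limma p under 0.05, 1 of these was higher (*Foxa1*, 0.51), against 1.68% of all clusters. *Foxa1* was at 6.37, 6.42 and 7.22 in mutant hearts, with linear means of 106 in mutant and 71.6 in wildtype hearts. *Foxa1* and *Cdh1* passed the filter only through the mutant hearts, so their higher mutant mean was fixed by the filter.

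Among the 9988 tested clusters with 1 gene, the patterns most like that of *Sema3c* over the 6 arrays were those of *Ccser2*, *Lpl*, *Azin1*, *Peak1* and *Psd3*, with Pearson's r of 0.993, 0.991, 0.986, 0.98 and 0.979. Spearman's rho was 1 for *Ccser2*, *Lpl* and *Azin1* and 0.943 for *Peak1* and *Psd3*. The genotypes lie apart in *Sema3c*, so r follows the genotype difference as well as the spread within it, and no p is given.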

How the data were processed

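The deposited log2 values were made by the authors with RMA at gene level from core gene predictions (Affymetrix Expression Console). The sources used here do not give the software version or the genome build. Clusters annotated to a gene with a linear mean over 100 in the higher genotype were compared with limma 3.58.1 in R 4.3.3 (lmFit, eBayes), and p-values were adjusted after Benjamini and Hochberg with a threshold of 0.05. The methods' test is the t-test that the study's methods name without stating its variances or scale. It was run here per gene with equal variances. Chromosomes and start-site windows came from RefSeq (GRCm38.p6). Python 3.11.15 and matplotlib 3.10.9 drew the figures. The number of arrays limits the precision.

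The genes and lists were chosen with earlier results of these data known. Besides the 10 genes, the text names family genes at an unadjusted p under 0.05, up to 3 genes of each pathway list and up to 2 of each marker list by lowest p, *Hic2*, and the 5 patterns most like *Sema3c*. Genes too dim to test or without a cluster were named after their values were seen, to account for counts. So were *Crmp1*, *Emcn*, *Egfl7*, *Prrx2*, *Elavl4*, *Cfl1*, *Ntn4* and *Cdh1*, to account for counts or for the filter. The pools are independent samples per the study's methods.

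Alternatives were the methods' test on either scale, an intensity trend, robust variances, other filters, clusters without a gene kept, 3 scalings, a replicate block, the erythroid median as a covariate, the mean of a gene's clusters, and each array left out. Deviations of same-numbered arrays correlated at 0.311, 0.142 and 0.458, each over 0.1, so the block took the numbers as pairs. Arrays of different numbers correlated at -0.424 to 0.303, and mutant replicate 1 with wildtype replicate 2 (0.303) and mutant replicate 2 with wildtype replicate 1 (0.231) exceeded the pair of replicate 2. Their meaning is not stated in the sources used here.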

Additional observations from a re-analysis of the deposited data

How the results depend on the processing

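The 9 genes kept a lower mutant mean and an adjusted p of 0.05 or more in all 180 results of 9 genes under 20 alternatives, with a lowest adjusted p of 0.184. The methods' test on log2 values, the intensity trend, robust variances, the other filters and the replicate block left each difference unchanged. So did keeping clusters without a gene, and the mean of a gene's clusters repeated the main fit. In these alternatives the direction was fixed in advance. The unadjusted p of *Sema3c* ranged from 0.00766 to 0.0781 and was under 0.05 in 14 of the 20.

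At an unadjusted p under 0.05, the count of the 9 genes, 1 as reported, was 2 by the methods' test on log2 or on linear values, 2 with an intensity trend and 2 after median centring, 0 after quantile normalisation or cyclic loess, 3 with the erythroid covariate, and 0 to 6 with an array left out. Their median difference was -0.36 with the erythroid covariate and -0.34 to -0.11 with an array left out.

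Over all clusters, the 7 called were 0 by the methods' test on either scale and with the erythroid covariate, 12 after quantile normalisation, and 4 to 12 with an array left out. The 616 lower were 1166 after median centring, 2317 with the erythroid covariate and 178 to 1891 with an array left out. The 175 higher were 306 without the intensity filter, 407 with clusters without a gene kept, 344 after quantile normalisation, 389 after cyclic loess, 98 with the erythroid covariate and 113 to 343 with an array left out. With the replicate block they were 281, and the pairing changed no call of the 9 genes. The cause of these shifts was not tested. The adjusted p of *Hic2*, 0.125 as reported, was under the threshold without wildtype replicate 3 (0.0244), with median centring (0.0442), with cyclic loess (0.0388) and with quantile normalisation (0.039).

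Each value rests on 3 arrays per genotype, and signal over the background of the array was not measured here.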
